A study of Homo sapiens with 6 samples.

Results

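Of the 16574 genes in 6 RNA sequencing libraries of Nthy-ori 3-1 cells, 63 genes with a symbol of the clustered replication-dependent histone families are described. The rule takes symbols alone, H1-, H2AC, H2BC, H3C or H4C followed by a number, and uses no measured value. They comprise 6 H1, 14 H2A, 17 H2B, 12 H3 and 14 H4 genes. Other symbols of this form were not analysed here. Of the 63 genes, 24 entered the test because 3 or more of the libraries gave them at least 1 FPKM, namely 2 H1, 8 H2A, 6 H2B, 3 H3 and 5 H4 genes. FPKM are fragments scaled to transcript length and library total.

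Nthy-ori 3-1 is an established line from normal human thyroid follicular epithelium, immortalised with SV40 large T antigen, and is labelled wild type. A group of 3 libraries came from cells exposed for 27 days to 2.5 µM BDE209, a fully brominated diphenyl ether used as a flame retardant. The other 3 libraries came from cells given an equal volume of the solvent DMSO over those 27 days. The labels number the libraries 1 to 3 in each group and do not say whether each was a culture of its own. The p-values therefore reflect only how far these 6 samples differ, and that spread may be technical.

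Histones are the proteins around which DNA is wound. H2A, H2B, H3 and H4 form the nucleosome core, and H1 binds the linker DNA between cores. Most core histone protein is made in S phase from clustered gene copies whose transcription is switched on by NPAT. Their mRNAs end in a conserved stem-loop, bound by SLBP, in place of a poly(A) tail, so protocols that select poly(A) recover them poorly. Whether poly(A) selection was used is not given in the sources used here. H1-10 matches the symbol rule but is known as a linker histone expressed outside S phase from polyadenylated mRNA, and H1-8 is known as an oocyte linker histone. In the RefSeq annotation 50 of the 63 genes lie on chromosome 6, 10 on chromosome 1, 2 on chromosome 3 and 1 on chromosome 12. Those on chromosome 3 are H1-10 and H1-8, and that on chromosome 12 is H4C16.

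The stem-loop was looked up because it is the feature that sets these transcripts apart. In the GENCODE v29 transcripts of GRCh38, available for 61 of the 63 genes, a stem-loop of 16 bases followed the stop codon by 22 to 56 bases in 26 genes. For 27 genes the longest transcript ended at the stop codon. The search accepted only a perfectly paired 6-base stem beginning GG and a 4-base loop beginning tt. Other forms would be missed, so a gene without a match need not lack a stem-loop. The 26 stem-loops took 4 forms, shown here on the coding strand with the 6-base arms of the stem in capitals and the 4-base loop in lower case. H2AC6 stands for 14 genes, H2BC5 for 4, H4C5 for 5 and H4C14 for 3.
H2AC6: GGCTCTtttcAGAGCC
H2BC5: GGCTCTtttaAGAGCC
H4C5: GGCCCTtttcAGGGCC
H4C14: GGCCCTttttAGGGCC
The stem of the H4 genes differed from that of the H2A, H2B and H3 genes. The loop tttc occurred with both stems, ttta only with that of the H2A, H2B and H3 genes and tttt only with that of the H4 genes. H2AC25, H2BC9, H2BC6, H2BC13 and H3C10 carry the form of H2AC6. In 19 core histone genes the transcript ran on for more than 100 bases past the stem-loop, and their median level over the 6 libraries was 0.817 FPKM, against 0.62 FPKM in the other 36 core genes with a transcript.

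Some facts of the whole series touch these values. The spacing of low FPKM values gave depths relative to DMSO replicate 1 of 1.0, 1.0 and 0.764 in BDE209 replicates 1, 2 and 3, and of 1.0 and 0.625 in DMSO replicates 2 and 3. Absolute depth is unknown. Both replicate 2 libraries stood apart, with summed FPKM of 829739 in BDE209 and 819086 in DMSO, against 567810 to 596725 in the other 4, and with higher values for short transcripts. Replicate numbers paired the samples: deviations from the group means correlated across genes at 0.738, 0.875 and 0.824 between BDE209 and DMSO libraries numbered 1, 2 and 3. The follicular markers TG, TSHR, SLC5A5 and NKX2-1 were at or near 0 in all 6 libraries and PAX8 lay between 0.35 and 0.49 FPKM. FOXE1, the only follicular marker of this list that passed the filter, lay between 0.84 and 1.48 FPKM. Of 5 epithelial markers KRT18 was present at 36.19 to 55.92 FPKM, KRT8 at 5.7 to 9.0 FPKM and EPCAM at 1.06 to 1.21 FPKM, while KRT19 and CDH1 were at or near 0. The matrix and mesenchymal genes COL1A1, COL1A2, LUM, DCN and VIM summed to 8549 to 11225 FPKM in BDE209 libraries and to 9154 to 13165 FPKM in DMSO libraries, most of it VIM. Within that list DCN had 31.15, 19.68 and 27.61 FPKM in BDE209 and 13.35, 17.47 and 12.94 FPKM in DMSO. LUM had 23.38, 11.09 and 21.96 FPKM in BDE209 and 8.0, 8.21 and 7.26 FPKM in DMSO. In both genes all BDE209 values lay above all DMSO values. Limma called both on replicates 1 and 3 alone, where it called 6.81% of all genes. Its Benjamini-Hochberg adjusted p there was 0.000993 for DCN and 0.000327 for LUM, and neither was called on all 6 libraries. VIM went the other way, with 7520.28, 7183.23 and 6816.94 FPKM in BDE209, all below 9206.88, 7736.86 and 8139.47 FPKM in DMSO. COL1A1 and COL1A2 had log2 differences of -0.08 and -0.07, with overlapping groups. The part of these matrix and mesenchymal genes in the histone values was not tested. In such bulk libraries fewer cells of a type and less RNA per cell cannot be told apart.

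The clustered histone genes were measured at low levels. Their median, taken over each gene's mean of 6 libraries, was 0.657 FPKM, against 5.05 FPKM for all genes. Members above 0 numbered 46, 56 and 40 in BDE209 replicates 1, 2 and 3 and 43, 53 and 39 in DMSO replicates 1, 2 and 3. The highest counts of members above 0 were in both replicate 2 libraries, and the lowest in both replicate 3 libraries, which were the shallowest. Of the 63 genes 26 were above 0 in all 6 libraries, 10 reached 1 FPKM in all 6 and 21 reached 1 FPKM in none.

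**Figure D1:**
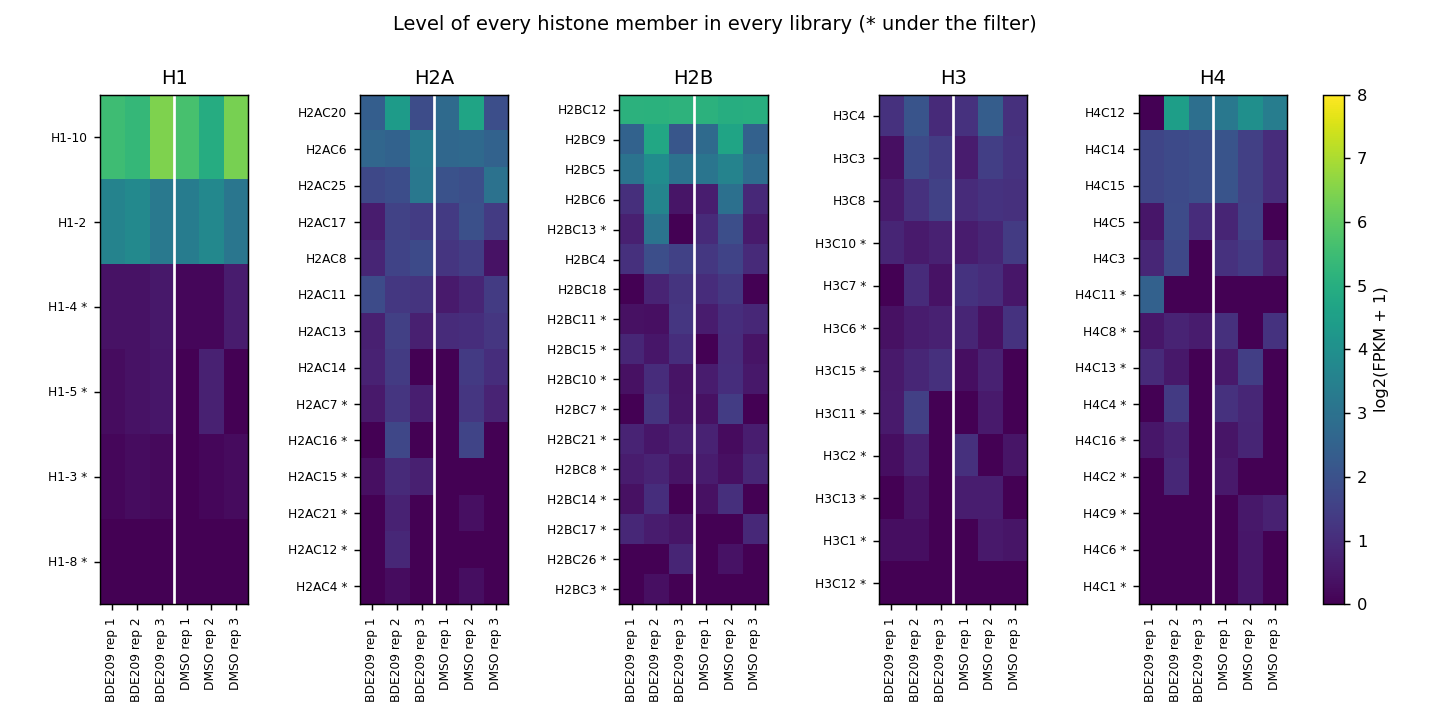
Each row is 1 of the 63 histone genes, each column 1 library with BDE209 left of the white line and DMSO right of it, and colour gives log2(FPKM + 1). H1-10 and H2BC12 stand out as the highest genes, most others lie near 0, and genes marked * are the 39 that did not enter the test.

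Steps in the low values give a rough count of fragments for some of these genes. Members were kept here only if their step and their largest count in such steps were small, so low counts among them were set by that rule. For 36 members the values lay close to whole multiples of a step no larger than 0.484 FPKM in DMSO replicate 1, within 0.1 of a step or, where larger, 4% of the multiple plus the rounding of the value. The steps are upper estimates of what 1 fragment is worth, so the counts are minimums. Counted in such steps, H4C8 had 1, 2 and 1 fragments in BDE209 libraries and 3, 0 and 2 in DMSO libraries. H2BC10 had 1, 4 and 1 fragments in BDE209 libraries and 2, 4 and 1 in DMSO libraries. H2AC8, one of the deeper of them, had 4, 10 and 10 fragments in BDE209 libraries and 7, 9 and 1 in DMSO libraries. Counted this way, a difference of a few fragments spans the whole range of genes such as H4C8 and H2BC10.

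The series was designed to compare gene expression after exposure to BDE209 with that in solvent. No histone gene passed the test. Limma on log2(FPKM + 1), with Benjamini-Hochberg adjustment over all 11223 genes tested, called 0 of 24 histone genes and 0.0% of all genes. At an unadjusted p under 0.05 the same fit held 0 of 24 histone genes and 1.57% of all genes. With the replicate number as a block, limma again called 0 of 24 histone genes and 0.0% of all genes. The block left 1 histone gene, H2AC20, under an unadjusted p of 0.05, beside 16.5% of all genes. On replicates 1 and 3 alone limma called 0 of 24 histone genes and 6.81% of all genes, 502 higher and 262 lower in BDE209. In that fit the histone gene with the smallest Benjamini-Hochberg adjusted p was H2AC13, at 0.118. Standard errors and intervals below come from the fit without the block unless stated. They therefore include the spread between replicate numbers.

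The histone genes had no common direction across replicate numbers. On the log2(FPKM + 1) scale the median difference of the 24 genes, DMSO subtracted from BDE209, was 0.10, against 0.01 over all genes tested. Within replicate number 1 their median difference was -0.27, with 5 genes higher and 18 lower in BDE209. Within replicate number 2 it was 0.20, with 17 genes higher and 7 lower in BDE209. Within replicate number 3 it was 0.14, with 15 genes higher and 9 lower. Over all genes tested the 3 medians were 0.01, 0.02 and -0.00. H4C14 and H4C15, which have identical values, both count among the 24 genes.

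**Figure D2:**
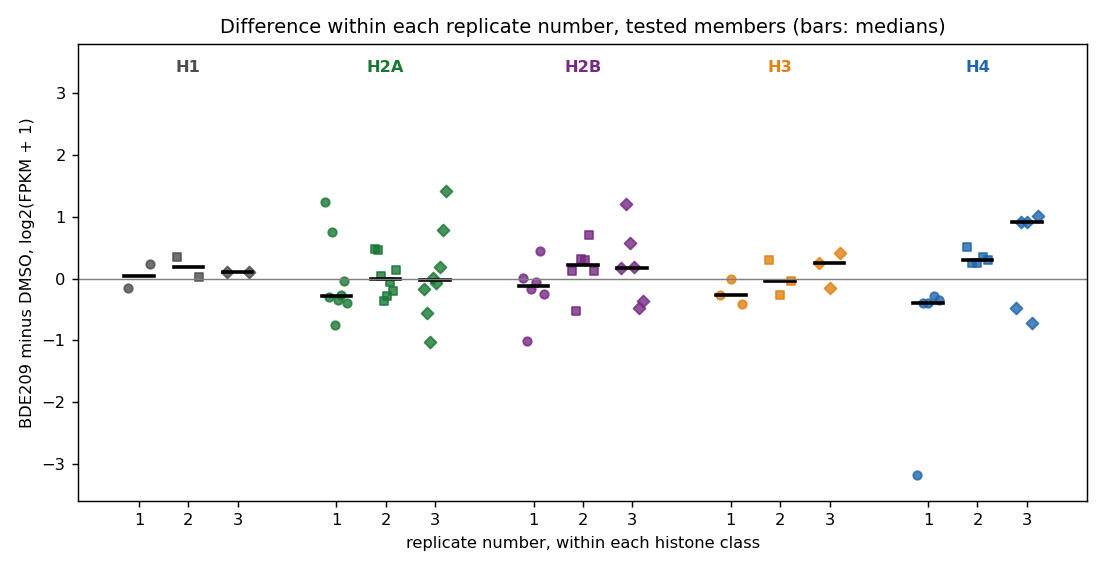
Each point is 1 of the 24 tested histone genes, the vertical axis gives the difference in log2(FPKM + 1), BDE209 minus DMSO, within a replicate number, the horizontal axis gives class and replicate number, and black bars are medians. All 5 H4 genes lie below 0 in replicate number 1 and above 0 in replicate number 2. Of these, H4C14 and H4C15 have identical values. The H1 medians lie between 0.05 and 0.19.

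No tested histone gene had its BDE209 and DMSO values apart. Among all genes 3.22% had all 3 BDE209 values above all 3 DMSO values and 2.0% had them below, and among the 24 histone genes both counts were 0. BDE209 was higher within all 3 replicate numbers in 2 of 24 histone genes, H1-2 and H2BC12, beside 21.9% of all genes. BDE209 was lower within all 3 in 1 of 24, H2AC20, beside 17.3% of all genes. Among the 39 untested genes H2AC15, which encodes a core H2A, had values of 0.25, 0.95 and 0.64 FPKM in BDE209 and was listed at 0 in all 3 DMSO libraries. Counted in the steps above, which give minimums, these values stand for 1, 4 and 2 fragments. H2AC15 was picked out after its values were seen.

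The linker histone gene with the highest values was H1-10, known to be polyadenylated. H1-10, a linker histone that is not tied to S phase (ENSG00000184897), had 45.24, 38.94 and 86.74 FPKM in BDE209 and 50.31, 30.30 and 80.30 FPKM in DMSO. Both replicate 3 libraries were high and the groups overlapped. The means were 57.0 ± 26.0 FPKM in BDE209 and 53.6 ± 25.2 FPKM in DMSO (SD, n = 3 each), a log2 difference of 0.10 with a standard error of 0.43.

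H1-2, the most abundant clustered linker histone gene here (ENSG00000187837), had 11.03, 12.47 and 8.42 FPKM in BDE209 and 9.16, 12.25 and 7.74 FPKM in DMSO. BDE209 was higher in 3 of 3 replicate numbers, but the groups overlapped, and replicate 2 was high in both. The log2 difference was 0.13 with a standard error of 0.21, and limma gave a Benjamini-Hochberg adjusted p of 1.00, as it did for each of the 24 genes. The other clustered H1 genes lay lower. H1-4, the highest gene of the class that was not tested, had 0.32, 0.31 and 0.42 FPKM in BDE209 and 0.11, 0.11 and 0.52 FPKM in DMSO, so its lowest values were DMSO replicates 1 and 2. Summed over the 4 clustered H1 genes, levels were 11.67, 13.3 and 9.39 FPKM in BDE209 and 9.27, 13.12 and 8.44 FPKM in DMSO.

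Of the H2A genes, which supply the partner of H2B in the core, H2AC20 had the highest mean (ENSG00000184260). It had 4.28, 19.97 and 2.59 FPKM in BDE209 and 5.75, 24.39 and 2.79 FPKM in DMSO. Both replicate 2 libraries stood far above the other 4, and BDE209 was the lower library in each of the 3 replicate numbers. The log2 difference was -0.24, with a standard error of 0.90 without the block and 0.08 with it. Limma's Benjamini-Hochberg adjusted p was 1.00 without the block and 0.249 with it. The H2AC20 promoter is printed because this gene had the largest replicate 2 values of its class. It shows the 235 bases upstream of the start on the plus strand of GRCh38.p14, chr1:149886683-149886917, up to the neighbouring start of H2BC21, from RefSeq. Capitals mark the letters CCAAT, those of the TATA box, written TATAAA, and the octamer ATTTGCAT, each also where its reverse complement lies on the strand shown.
H2AC20: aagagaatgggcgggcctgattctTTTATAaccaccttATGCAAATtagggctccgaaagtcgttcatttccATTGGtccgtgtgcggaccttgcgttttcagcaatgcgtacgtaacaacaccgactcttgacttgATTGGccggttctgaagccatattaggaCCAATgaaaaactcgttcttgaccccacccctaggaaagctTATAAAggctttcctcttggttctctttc

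H2AC6 (ENSG00000180573), which encodes a core H2A, had 5.21, 4.78 and 8.72 FPKM in BDE209 and 5.41, 5.68 and 4.66 FPKM in DMSO. BDE209 replicate 3 was the highest library, the other 5 lay close together, and the log2 difference was 0.18 with a standard error of 0.22. H2AC11 (ENSG00000196787), another core H2A gene, had 2.53, 1.45 and 1.30 FPKM in BDE209 and 0.50, 0.76 and 1.60 FPKM in DMSO. DMSO replicate 3 lay above BDE209 replicates 2 and 3, so the groups overlapped. The log2 difference of 0.51 was the largest positive one among the 24 genes, with a standard error of 0.26 and an unadjusted limma p of 0.098.

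H2AC8 (ENSG00000277075) had 0.77, 2.03 and 2.47 FPKM in BDE209 and 1.34, 1.75 and 0.30 FPKM in DMSO, with a log2 difference of 0.38 and a standard error of 0.37. BDE209 was lower in replicate number 1 and higher in the other two. H2AC7, the highest untested H2A gene, had 0.47, 1.35 and 0.60 FPKM in BDE209 and 0.00, 1.41 and 0.74 FPKM in DMSO, with replicate 2 highest in both. H2A genes summed to 17.69, 42.77 and 26.77 FPKM in BDE209 and 18.58, 44.89 and 21.26 FPKM in DMSO. Without H2AC20 the sums were 13.41, 22.8 and 24.18 FPKM in BDE209 and 12.83, 20.5 and 18.47 FPKM in DMSO.

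H2BC12 was the highest clustered core histone gene and the steadiest of those above 10 FPKM. H2BC12 (ENSG00000197903), which encodes a core H2B, had 33.97, 33.18 and 34.94 FPKM in BDE209 and 33.91, 30.40 and 31.01 FPKM in DMSO. BDE209 was higher in each replicate number, though by little in the first, and BDE209 replicate 2 lay below DMSO replicate 1. The means were 34.0 ± 0.882 FPKM in BDE209 and 31.8 ± 1.88 FPKM in DMSO (SD, n = 3 each). The log2 difference was 0.10, with a 95% interval of limma from -0.17 to 0.37 and a Benjamini-Hochberg adjusted p of 1.00. With the replicate block the limma interval was -0.05 to 0.24 and the Benjamini-Hochberg adjusted p 0.431.

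H2BC9 and H2BC6, also core H2B genes, followed the replicate number instead. H2BC9 (ENSG00000275713) had 4.68, 26.78 and 3.39 FPKM in BDE209 and 5.79, 24.42 and 4.63 FPKM in DMSO. H2BC6 (ENSG00000274290) had 1.12, 11.54 and 0.36 FPKM in BDE209 and 0.56, 6.72 and 0.89 FPKM in DMSO. In both genes the replicate 2 libraries of both groups were far above the other 4. The log2 differences were -0.16 with a standard error of 0.86 for H2BC9 and 0.22 with a standard error of 0.97 for H2BC6. With the replicate block the standard errors were 0.10 for H2BC9 and 0.23 for H2BC6, and neither gene was called. The untested H2BC13 was also highest in both replicate 2 libraries, with 0.62, 7.37 and 0.00 FPKM in BDE209 and 0.92, 2.76 and 0.49 FPKM in DMSO.

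The promoters of H2BC9 and H2BC12 are set side by side because the replicate numbers parted these 2 H2B genes. Each holds 250 bases upstream of the start in GRCh38.p14 from RefSeq, chr6:26251364-26251613 on the plus strand for H2BC9 and chr6:27146859-27147108 on the minus strand for H2BC12, with capitals as above.
H2BC9: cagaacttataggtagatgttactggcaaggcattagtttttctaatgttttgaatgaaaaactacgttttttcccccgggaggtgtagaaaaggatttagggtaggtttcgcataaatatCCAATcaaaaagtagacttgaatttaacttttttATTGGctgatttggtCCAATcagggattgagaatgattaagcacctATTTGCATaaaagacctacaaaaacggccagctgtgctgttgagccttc
H2BC12: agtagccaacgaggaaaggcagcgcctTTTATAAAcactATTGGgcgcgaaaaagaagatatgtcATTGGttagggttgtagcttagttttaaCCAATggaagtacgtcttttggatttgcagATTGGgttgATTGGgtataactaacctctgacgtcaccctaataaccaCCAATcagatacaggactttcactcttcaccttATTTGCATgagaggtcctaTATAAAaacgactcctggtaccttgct
Both hold the octamer, the known binding site of POU2F1. H2BC9 had 3 CCAAT matches and 0 of TATAAA in this window, and H2BC12 had 6 and 3. In H2BC12 the run in capitals near the distal end holds overlapping matches of TATAAA on both strands.

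The remaining H2B genes lay lower. H2BC5 had 7.23, 13.76 and 7.00 FPKM in BDE209 and 7.56, 10.93 and 6.06 FPKM in DMSO, with replicate 2 highest in both. H2BC4 (ENSG00000180596) had 1.18, 2.82 and 1.90 FPKM in BDE209 and 1.46, 2.05 and 0.94 FPKM in DMSO, with a log2 difference of 0.24 and a standard error of 0.26. The H2B sum was 52.55, 102.18 and 54.14 FPKM in BDE209 and 54.02, 85.46 and 47.88 FPKM in DMSO. Without H2BC9, H2BC6 and H2BC13 it was 46.13, 56.49 and 50.39 FPKM in BDE209 and 46.75, 51.56 and 41.87 FPKM in DMSO, so these 3 genes held most of the replicate 2 excess.

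The H3 genes, whose product pairs with H4, were the lowest core class. H3C4 (ENSG00000197409) had 1.21, 3.24 and 0.94 FPKM in BDE209 and 1.21, 4.12 and 1.15 FPKM in DMSO, a log2 difference of -0.14 with a standard error of 0.44. H3C3 (ENSG00000287080) had 0.26, 2.49 and 1.68 FPKM in BDE209 and 0.52, 1.82 and 1.24 FPKM in DMSO, a log2 difference of 0.10 with a standard error of 0.42. Replicate 2 was highest in both groups for both genes, and the groups overlapped. H3C10, the highest untested H3 gene, had 0.78, 0.50 and 0.67 FPKM in BDE209 and 0.52, 0.78 and 1.65 FPKM in DMSO. H3C12 was listed at 0 in all 6 libraries. The 12 H3 genes summed to 4.43, 12.8 and 7.38 FPKM in BDE209 and 7.23, 11.45 and 7.62 FPKM in DMSO.

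The H4 genes all encode 1 protein, and the direction of their differences changed with the replicate number. H4C12 (ENSG00000273542) had 0.00, 21.31 and 6.62 FPKM in BDE209 and 8.12, 14.74 and 9.57 FPKM in DMSO. Its lowest and highest values were both BDE209 libraries, replicate 1 and replicate 2. The log2 difference of -1.05 was the largest in size among the 24 genes, with a standard error of 1.06, so it did not exceed the spread. H4C11, the highest untested H4 gene, had 4.54 FPKM in BDE209 replicate 1 and was listed at 0 in the other 5 libraries, and so had its only value in the library where H4C12 was at 0. Whether reads were exchanged between these copies was not tested.

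H4C14 (ENSG00000270882) and H4C15 (ENSG00000270276), whose coding sequences are identical, had identical values, with 2.16, 2.45 and 2.82 FPKM in BDE209 and 3.18, 1.89 and 1.03 FPKM in DMSO. The 3 BDE209 values lay within the range of the DMSO values, and the log2 difference was 0.25 with a standard error of 0.27. H4C5 (ENSG00000276966) had 0.39, 2.58 and 1.01 FPKM in BDE209 and 0.76, 1.90 and 0.00 FPKM in DMSO, a log2 difference of 0.32 with a standard error of 0.48. All 5 tested H4 genes were lower in BDE209 in replicate number 1 and higher in replicate number 2, and 3 of 5 were higher in replicate number 3. H4C14 and H4C15 count there as separate genes. With H4C15 left out, 2 genes were higher and 2 lower in replicate number 3, and the other directions held in all 4. The H4 sum was 11.77, 35.44 and 13.78 FPKM in BDE209 and 20.1, 26.59 and 14.22 FPKM in DMSO, ratios of 0.586, 1.33 and 0.969 within replicate numbers 1, 2 and 3.

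**Figure D3:**
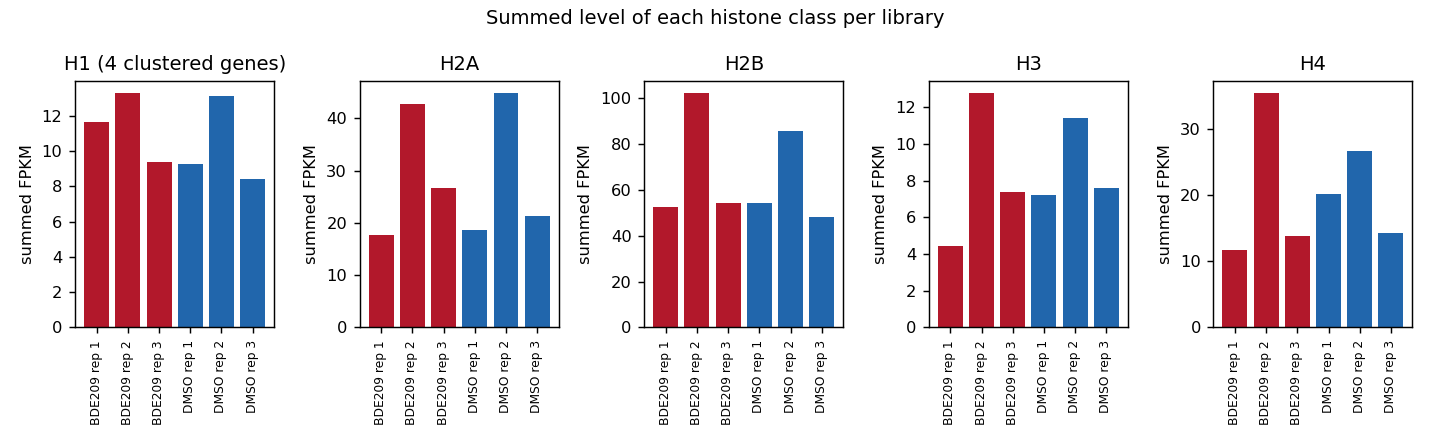
Bars give the summed FPKM of each class in each library, BDE209 in red at left and DMSO in blue at right, with the H1 panel holding the 4 clustered genes. Replicate 2 is the highest library of its group in each panel, up to 102.18 FPKM for H2B in BDE209 and 85.46 FPKM in DMSO.

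The classes did not share 1 direction. The median difference of tested genes was 0.11 for H1, -0.06 for H2A, 0.12 for H2B, -0.01 for H3 and 0.25 for H4. The H4 median is the value that H4C14 and H4C15 share, and with H4C15 left out it was 0.02. Over all genes of a class, without the filter, the median was -0.15 for H4 and 0.08 for H2A, the opposite sign in both. In replicate number 1 the medians of H2A, H2B, H3 and H4 were -0.28, -0.12, -0.27 and -0.40, and that of H1 was 0.05. In replicate number 2 the medians of H2B and H4 were 0.22 and 0.30, and those of H1, H2A and H3 were 0.19, -0.01 and -0.04. In replicate number 3 the medians of H2B, H3 and H4 were 0.17, 0.26 and 0.91, beside 0.11 for H1 and -0.03 for H2A. Over the 61 genes other than H1-10 and H1-8 the summed level was 98.11, 206.49 and 111.46 FPKM in BDE209 and 109.2, 181.51 and 99.42 FPKM in DMSO, higher in BDE209 for 2 of 3 replicate numbers.

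The summed level of the 61 clustered genes was highest in replicate 2 in both treatments, and single genes differed in how far they followed it. Among the 24 tested genes 13 had both replicate 2 libraries above the other 4, beside 29.8% of all genes. They were more than 2-fold above the highest of the other 4 in 4 of 24, H2AC20, H2BC9, H2BC6 and H3C4, beside 1.9% of all genes. H2AC14, H2BC6, H4C3 and H4C5, 4 of the 13 genes above, reached the filter with exactly 3 libraries, both of replicate 2 among them, so their entry to the test and their shift are not independent. Both replicate 2 libraries lay below the other 4 in 1 of 24, H1-10, beside 42.6% of all genes.

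Measured as replicate 2 minus the mean of replicates 1 and 3, the median shift of the 24 genes was 0.59 on the log2(FPKM + 1) scale in BDE209 and 0.53 in DMSO. Over all genes tested it was -0.10 in BDE209 and -0.09 in DMSO. The filter admits some genes through their replicate 2 values. Without the filter the median over all 63 histone genes was 0.30 in BDE209 and 0.32 in DMSO, beside -0.03 in both over all genes. Many untested genes lie near 0, where this scale understates shifts. Histone transcripts are mostly short, and 21 of the 23 tested histone genes with a known length were among the 2802 tested genes with the shortest transcripts, up to 2387 bases, while H2BC6 and H3C8 were longer. Over those 2802 genes, which are not matched to the histone genes in level or length, the median shift was 0.37 in BDE209 and 0.31 in DMSO. Of these 2802 genes, 1644 had both replicate 2 libraries above the other 4, 163 by more than 2-fold, and 409 had them below. By class the median shift of tested genes in BDE209 and DMSO was -0.17 and -0.28 for H1 and 0.43 and 0.36 for H2A. It was 0.73 and 0.71 for H2B, 0.93 and 0.61 for H3, and 1.10 and 0.44 for H4. Without the filter it was -0.0015 and 0.012 for H1, 0.59 and 0.30 for H2A, and 0.32 and 0.48 for H2B. For H3 it was then 0.28 and 0.25, and for H4 0.16 and 0.36. The part that transcript length, RNA quality or the share of RNA without poly(A) had in this shift was not tested.

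**Figure D4:**
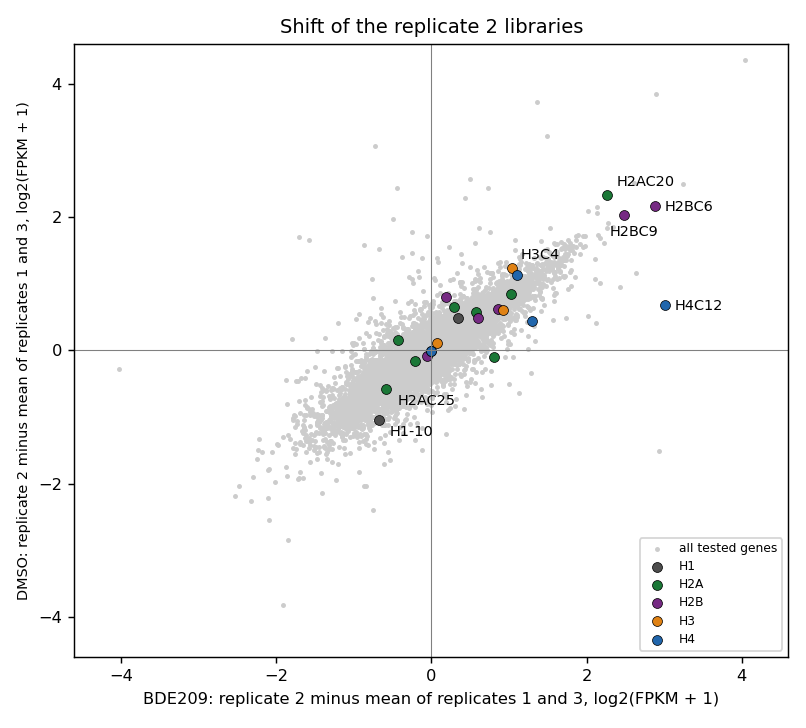
The replicate 2 shift on the log2(FPKM + 1) scale is plotted for BDE209 (horizontal) against DMSO (vertical), with all 11223 tested genes in grey and the 24 histone genes coloured by class. H2AC20, H2BC9 and H2BC6 lie above 2 on both axes, H1-10 and H2AC25 lie below 0 on both, and H4C12 is high in BDE209 at 3.01 and lower in DMSO at 0.68.

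A smaller set of genes followed replicate 3. Both replicate 3 libraries lay above the other 4 in 2 of 24 tested genes, H1-10 and H2AC25, beside 12.1% of all genes. H2AC25 (ENSG00000181218), a core H2A gene on chromosome 1, had 2.35, 2.70 and 8.14 FPKM in BDE209 and 3.04, 2.83 and 7.06 FPKM in DMSO. Replicates 1 and 2 were alike in both groups and replicate 3 was high in both, so the BDE209 minus DMSO difference was -0.05 with a standard error of 0.47. At a margin of more than 1.5-fold, set after the values were seen, H1-10 and H2AC25 were 2 of 12 such genes, which are 0.107% of the 11223 tested. The transcripts of H1-10 and H2AC25 have 68.6% and 57.7% GC, both among the 2801 tested genes of highest GC content, whose median replicate 3 shift was 0.22 in BDE209 and 0.14 in DMSO. The part of GC content in these values was not tested.

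The H2AC25 promoter is shown beside that of H2AC20 because the pair are core H2A genes with opposite replicate patterns. It holds the 229 bases upstream of the start, up to the neighbouring start of H2BC26, on the minus strand of GRCh38.p14, chr1:228457874-228458102, from RefSeq, with capitals as above.
H2AC25: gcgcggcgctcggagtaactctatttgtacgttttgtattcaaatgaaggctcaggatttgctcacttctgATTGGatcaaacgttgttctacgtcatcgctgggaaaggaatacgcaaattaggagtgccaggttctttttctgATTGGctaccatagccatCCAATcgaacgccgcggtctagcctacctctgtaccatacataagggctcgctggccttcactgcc
H2AC20 and H2AC25 each held 3 CCAAT matches. H2AC20 also held 2 of TATAAA and 1 of the octamer, and H2AC25 held 0 of both. A match describes letters in this window and says nothing of a factor bound there.

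**Figure D5:**
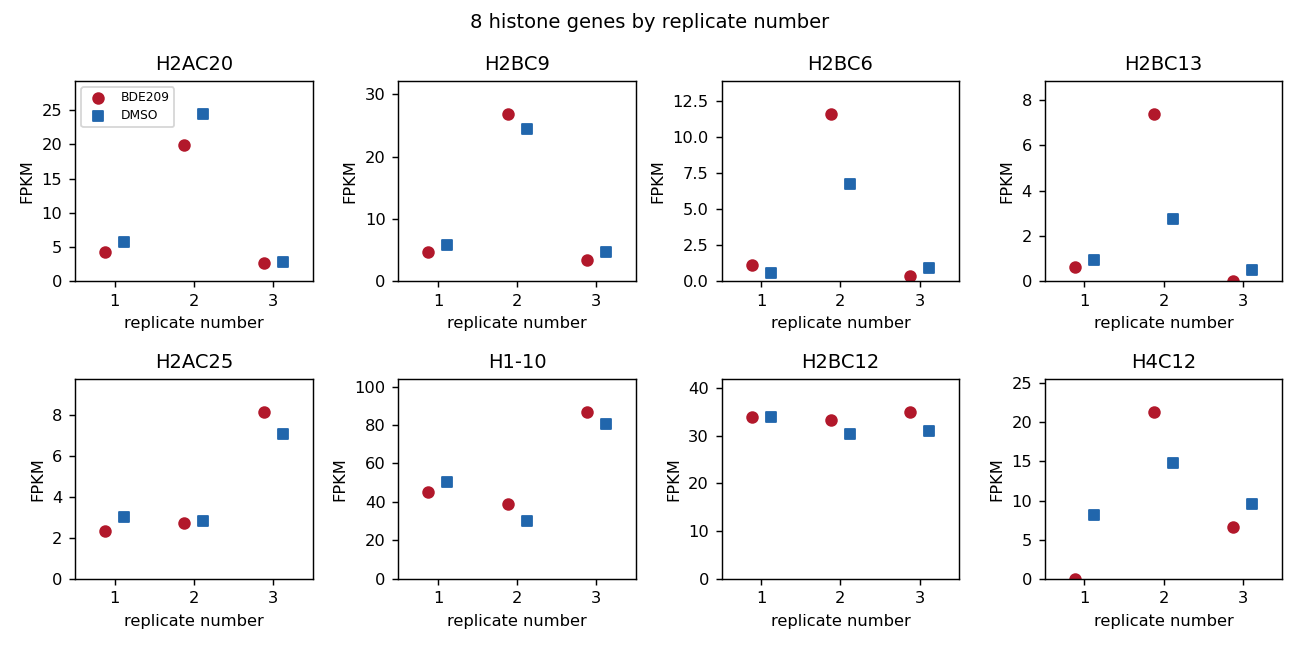
FPKM of 8 histone genes (vertical) by replicate number (horizontal), BDE209 as red circles left of DMSO as blue squares. H2AC20, H2BC9, H2BC6 and H2BC13 peak in replicate 2, H2AC25 and H1-10 in replicate 3, H2BC12 stays between 30.40 and 34.94 FPKM, and H4C12 is at 0.00 FPKM in BDE209 replicate 1.

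Promoters of the class were compared with all promoters in the RefSeq table, over 250 bases upstream of the start and both strands. CCAAT, the known NF-Y motif, was in 82.5% of 63 promoters of 58 histone genes and in 32.0% of all 35116 promoters. By class, CCAAT was in all 13 H2A, 19 H2B and 12 H3 promoters and in 5 of 7 H1 promoters. Among H4 promoters it was in only 3 of 12, a smaller share than among all promoters. TATAAA, the TATA box, was in 61.9% of histone promoters and 10.7% of all. The octamer ATTTGCAT was in 39.7% of histone promoters and 1.63% of all, with 76.9% in H2A, 73.7% in H2B, 8.33% in H3 and 0.0% in both H4 and H1. AAACACA, known as the AC box of H1 genes, was in 57.1% of the 7 H1 promoters and 4.82% of all promoters. The H1 promoters with it were those of the clustered genes H1-2, H1-3, H1-4 and H1-5. Those of H1-10 and H1-8 lacked it. H2AC20 and H2BC12, picked with their values in view, both hold the octamer. Their replicate 2 shifts were 2.27 and -0.05 in BDE209 and 2.33 and -0.09 in DMSO. The part of these motifs in the replicate 2 shift was not tested.

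Many H2A and H2B genes lie head to head, and in some pairs the partners differed in replicate pattern. Among the 58 histone genes with a promoter in the RefSeq table there were 10 such pairs, with starts 194 to 248 bases apart. Pairs that involve a histone gene outside that table would be missed. H2AC20 had a replicate 2 shift of 2.27 in BDE209 and 2.33 in DMSO, and its partner H2BC21 had -0.27 in BDE209 and -0.46 in DMSO. H2BC13 had 2.72 in BDE209 and 1.15 in DMSO, against 0.80 in BDE209 and -0.10 in DMSO for H2AC13. In 2 pairs, H2AC7 with H2BC7 and H2AC14 with H2BC14, both genes had shifts over 0.5 in both treatments. Only H2BC4 and H2AC6 were both tested, and most partners had low values.

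Near-identical copies limit what a single gene's value can mean. In coding sequence the 14 H4 genes were 79.0% to 100% identical with 1 protein between them, and the 10 H3 genes with a transcript were 82.6% to 97.1% identical with 2 proteins. The 14 H2A genes encode 9 proteins at 77.7% to 92.8% identity, and the 17 H2B genes 13 proteins at 84.7% to 94.4%. Sums over genes with the same protein are given beside the single genes. How reads were split among such genes was not tested. The 5 H2A genes H2AC11, H2AC13, H2AC15, H2AC16 and H2AC17 summed to 3.92, 8.51 and 4.25 FPKM in BDE209 and 3.04, 6.78 and 4.66 FPKM in DMSO. The 5 H2B genes H2BC4, H2BC6, H2BC7, H2BC8 and H2BC10 summed to 3.08, 17.44 and 3.29 FPKM in BDE209 and 3.33, 11.75 and 3.06 FPKM in DMSO. The 8 H3 genes with the same protein summed to 3.49, 8.49 and 4.53 FPKM in BDE209 and 4.76, 8.39 and 6.01 FPKM in DMSO. In each of these 3 sums replicate 2 was highest in both groups and the groups overlapped. H2AC4 and H2AC8 summed to 0.77, 2.24 and 2.47 FPKM in BDE209 and 1.34, 1.97 and 0.30 FPKM in DMSO. H3C13 and H3C15 summed to 0.45, 1.15 and 1.17 FPKM in BDE209 and 0.79, 1.24 and 0.00 FPKM in DMSO. In these pairs replicate 3 was the highest BDE209 library and the lowest DMSO library.

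The replication-independent histones, variants whose genes mostly lie outside the clusters, also gave no call in limma. Of the 10 genes found here under the listed symbols 9 were tested, with a median difference of 0.02. Both replicate 2 libraries were above the other 4 in 6 of these 9. H2AX, the H2A variant phosphorylated at DNA breaks, had 97.44, 109.41 and 119.09 FPKM in BDE209 and 126.27, 119.57 and 137.49 FPKM in DMSO. All 3 BDE209 values lay below all 3 DMSO values, with a log2 difference of -0.23 and a standard error of 0.15. MACROH2A2, a variant with a macro domain, had 33.66, 31.37 and 32.23 FPKM in BDE209 and 28.79, 35.51 and 24.63 FPKM in DMSO, a difference of 0.14. CENPA, the centromeric H3, was the 1 gene of these 9 that limma called in replicates 1 and 3 alone, beside 6.81% of all genes. In that fit CENPA was lower in BDE209 by 0.33 with a Benjamini-Hochberg adjusted p of 0.0420.

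The factors that make and destroy histone mRNA gave no call either. All 25 genes found here under the listed symbols were tested, with a median of 0.03. SLBP, the stem-loop binding protein, had 43.96, 65.66 and 48.25 FPKM in BDE209 and 48.50, 55.40 and 46.80 FPKM in DMSO. NPAT, the activator of the clusters, had 7.70, 5.38 and 7.23 FPKM in BDE209 and 7.03, 5.58 and 6.18 FPKM in DMSO. Replicate 2 was highest for SLBP and lowest for NPAT in both groups, and the log2 differences were 0.05 and 0.09 with standard errors of 0.18 and 0.16. SRRT, a partner of the cap-binding complex, and TUT7, a uridyltransferase acting in histone mRNA decay, had the smallest p of the list, with log2 differences of -0.20 and 0.16.

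Histone chaperones, 19 tested, had a median difference of -0.03 and no call, and the smallest p belonged to IPO4, an importin of histones, at -0.25 and RBBP4, a subunit of CAF-1, at 0.12. Of the 27 S phase genes tested none was called and the median was -0.05. TYMS, thymidylate synthase, had a log2 difference of 0.20 and POLD1, the catalytic subunit of DNA polymerase delta, of -0.17. CCNA2, cyclin A2, was the 1 gene of these 27 that limma called in replicates 1 and 3 alone, beside 6.81% of all genes. In that fit CCNA2 was lower in BDE209 by 0.39 with a Benjamini-Hochberg adjusted p of 0.0261. Of the S phase genes 13 of 27 had both replicate 2 libraries above the other 4, against 13 of 24 histone genes. No gene of the list of other RNAs without poly(A), such as RMRP and the small nucleolar RNAs, was analysed here.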

How the data were processed

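Transcript levels of 6 libraries were used. Each file the authors deposited lists FPKM to 2 decimals against human Ensembl identifiers, per the file headers. Bowtie 0.12.2, Bowtie2, RSEM and the mouse builds mm8 and mm10 were named per the submitters' processing notes. Not given in the sources used here were a human build, strand use, poly(A) selection and how multiply matching reads were counted. Total RNA went into Illumina libraries, per the labels' protocols.

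Of 16614 rows per file, 40 rows of 20 identifiers listed 2 times were left out, leaving 16574 genes, of which 16535 matched a symbol. Limma 3.58.1 in R 4.3.3, with trend and robust options, was run on log2(FPKM + 1) over 11223 genes with at least 1 FPKM in 3 or more libraries, with treatment alone as its term, and was checked on simulated data. The threshold for a call was an adjusted p of 0.05 (Benjamini-Hochberg, two-sided). Differences are BDE209 minus DMSO on that scale, which understates changes of low genes.

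Members, gene lists and rules were chosen with earlier results of these data known. Genes named per class were the 2 highest and the 2 most different tested genes and the highest untested gene, with H1-10. Apart from the 63 genes described, 1 gene that the symbol rule matches is not reported here. From other lists they were called genes or the 2 with the smallest p, with SLBP and NPAT. Any other gene was picked with its values in view. Groups and replicate numbers came from the titles. The numbers pair the samples, since same-numbered libraries correlated at 0.738, 0.875 and 0.824, and the labels do not say what they share.

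Coding sequences, stem-loops, lengths and GC content came from GENCODE v29 on GRCh38, promoters from RefSeq on GRCh38.p14. H3C2 and H3C3 had no GENCODE v29 transcript. No human build is named for the files, so coordinates belong to the printed sequences alone. Sequence identity was computed between coding sequences of equal length. Absolute depth is unknown, so no counting intervals are given, and with 3 libraries a group an exact permutation test cannot go below 0.1. Alternatives were the replicate block, replicates 1 and 3 alone, other pseudocounts, filters and scalings, leaving out each library, and, chosen after seeing the data, leaving out H1-10 and H1-8.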

Additional observations from a re-analysis of the deposited data

How the results depend on the processing

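No histone gene was called in limma under any alternative. With the replicate block 0 genes and 0 histone genes were called and the median difference of the histone genes was 0.10. On replicates 1 and 3 alone 764 genes were called, 0 of them histone genes, and the differences turned to -0.02 for H1-10, -0.016 for H2BC6, -0.006 for H3C3 and -0.048 for SLBP. A minimum of 5 FPKM left H4C12 as the only tested H4 gene, so the H4 median became -1.053. The median difference of all genes was 0.01, and -0.01 both when centred on library medians and with quantile normalization. Without the filter the class medians of H2A and H4 turned to 0.078 and -0.149. Of 230 values of 17 named genes under 14 alternatives, 203 kept their direction, 27 turned, and 23 of those 27 came from leaving out 1 library. The smallest Benjamini-Hochberg adjusted p among them was 0.249.

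Leaving out each library in turn, 0 to 1 genes and 0 to 0 histone genes were called. The lone call came without BDE209 replicate 2. The median difference of the histone genes ranged over -0.093 to 0.251. By class the medians ranged over 0.015 to 0.216 for H1, -0.191 to 0.214 for H2A, -0.156 to 0.377 for H2B, -0.21 to 0.271 for H3 and -0.068 to 0.339 for H4. Linker genes ranged over -0.245 to 0.444 (H1-10) and -0.011 to 0.289 (H1-2). H2A genes ranged over -0.992 to 0.54 (H2AC20) and -0.057 to 0.317 (H2AC6). H2AC11 and H2AC8 stayed above 0, at 0.321 to 0.738 and 0.063 to 0.676. H2B genes ranged over -0.739 to 0.945 (H2BC6) and -0.988 to 0.517 (H2BC9). H2BC12 and H2BC4 stayed above 0, at 0.067 to 0.144 and 0.042 to 0.447. H3 genes ranged over -0.21 to 0.525 (H3C3) and -0.485 to 0.271 (H3C4). H4 genes ranged over -2.058 to 0.182 (H4C12), -0.004 to 0.517 (H4C14) and -0.068 to 0.7 (H4C5). SLBP ranged over -0.119 to 0.165 and NPAT over 0.001 to 0.225. The causes were not tested.

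Most of the 63 genes had low values. Where these rest on few fragments, differences of a few fragments were not detectable at this depth. Without counts the precision of single values is unknown.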
